A study of Mus musculus with 4 samples.

Results

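Saa3, Clec4e, Clec4d, Aoah, Il1b and Lipg, 6 genes of acute inflammation, were followed among 32287 counted features in the popliteal lymph nodes (PLNs) of wild-type and TNF-transgenic (TNF-Tg) mice. They were chosen by name, on their level on the Early area against the other areas and at the tissue rim against the interior, so these differences are described here without a test. PLNs drain the hind limb, and TNF-Tg mice, which carry a human TNF transgene, develop an inflammatory-erosive arthritis. Sections were placed on 4 Visium capture areas of a single slide, grids of barcoded spots that count each captured RNA molecule once by its unique molecular identifier (UMI). The WT area held 10 PLNs of 5 wild-type mice aged 5.5 months, the Early area 6 PLNs of 3 TNF-Tg mice aged 5.5 months with Early arthritis, and the Advanced 1 and Advanced 2 areas 6 PLNs of 3 TNF-Tg mice each, aged 8.5 to 9 months, with Advanced arthritis. All mice were male, on the C57BL/6 background, and had received Evans blue dye in the hindpaw to find the PLNs. WT and Early were each a single area, the nodes of several mice were pooled on an area, and age and stage of arthritis could not be told apart between Early and Advanced.

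Acute inflammation in a lymph node works through a chain of sensors, signals and effectors. Macrophages lining the sinuses, the channels through which lymph flows, meet particles and microbial products from the limb first. Pattern receptors such as the C-type lectins Mincle and MCL, encoded by Clec4e and Clec4d, recognise glycolipids of microbes and of dying cells and signal through the Fc receptor gamma chain and Syk. Interleukin 1 beta, encoded by Il1b, is a cytokine made as an inactive precursor and cut by caspase 1. Saa3 encodes serum amyloid A3, the serum amyloid A made mainly outside the liver in the mouse and induced by interleukin 1, interleukin 6 and TNF. Aoah encodes acyloxyacyl hydrolase, which removes fatty acyl chains from lipopolysaccharide and so inactivates it. Lipg encodes endothelial lipase, a phospholipase of the lipoprotein lipase family.

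Of the 6 genes, 4 carried the pattern of the label and 2 did not. Saa3, Clec4e, Aoah and Lipg took at least 2-fold more of the UMIs on the Early area than on each of the other 3 areas. Across the 12072 genes with at least 50 UMIs, 14 did so (0.116%), and since the members were chosen on this difference nothing is read from their share. Of the 4, Saa3 alone kept 2-fold over each other area in rim spots. The same was true without 1 piece of Early tissue (piece 2, described below). Il1b was highest on the WT area, and Clec4d was close to its WT level on the Early area. The 6 genes therefore did not move as a group, and they are described in turn below.

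Promoters of genes with and without the Early pattern are shown from RefSeq (GRCm38.p6). Each runs from 250 bases before to 50 bases after the start of the gene on its own strand. The search covered 5 of the 6 genes and left out Lipg, so it says nothing about the promoter of Lipg. Capitals mark the TATA box (TATAAA) and the C/EBP motif (TTNNGCAA, N for any base), searched on both strands. Saa3 is shown from chr7:46715627-46715926, Clec4e from chr6:123289822-123290121 and Il1b from chr2:129371090-129371389, all on the minus strand, and Aoah from chr13:20793863-20794162 on the plus strand.
Saa3: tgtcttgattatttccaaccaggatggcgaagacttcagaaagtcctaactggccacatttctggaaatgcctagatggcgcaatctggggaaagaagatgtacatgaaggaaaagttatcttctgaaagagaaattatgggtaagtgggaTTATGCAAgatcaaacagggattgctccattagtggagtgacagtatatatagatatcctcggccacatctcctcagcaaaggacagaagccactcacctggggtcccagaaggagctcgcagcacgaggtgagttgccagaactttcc
Clec4e: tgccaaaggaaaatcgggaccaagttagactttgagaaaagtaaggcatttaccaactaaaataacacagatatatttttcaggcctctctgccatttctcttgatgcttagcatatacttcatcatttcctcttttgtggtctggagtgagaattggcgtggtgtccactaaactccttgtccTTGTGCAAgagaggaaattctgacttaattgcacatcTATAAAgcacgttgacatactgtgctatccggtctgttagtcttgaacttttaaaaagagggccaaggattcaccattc
Aoah: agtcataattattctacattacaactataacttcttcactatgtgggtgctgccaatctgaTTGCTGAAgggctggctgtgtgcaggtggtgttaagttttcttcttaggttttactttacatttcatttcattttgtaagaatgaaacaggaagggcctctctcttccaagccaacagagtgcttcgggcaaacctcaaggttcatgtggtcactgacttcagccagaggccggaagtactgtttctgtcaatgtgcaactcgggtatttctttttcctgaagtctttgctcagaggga
Il1b: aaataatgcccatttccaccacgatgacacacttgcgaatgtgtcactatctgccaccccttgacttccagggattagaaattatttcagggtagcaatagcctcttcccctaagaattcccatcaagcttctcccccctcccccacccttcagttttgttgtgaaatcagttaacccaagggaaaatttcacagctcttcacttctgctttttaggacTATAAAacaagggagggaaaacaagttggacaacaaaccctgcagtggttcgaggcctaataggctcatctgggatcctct
The C/EBP motif lay at -99 to -92 from the start of Saa3, at -66 to -59 from that of Clec4e and, on the opposite strand, at -189 to -182 from that of Aoah. It was held by 10.8% of 32851 RefSeq promoters of this length, and neither Il1b nor Clec4d had it in this window. Lipg, the fourth gene with the Early pattern, was not scored, so the motif cannot be set against the pattern for all 6. A TATA box stood at -29 in Clec4e and at -31 in Il1b, against 13.6% of all promoters. The AP-1 motif TGANTCA (7.81% of promoters) and the NF-kB consensus (8.46%) had no match in the 5 windows. These matches describe letters in the reference and do not show that a factor was bound.

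The areas held 1808678 UMIs in 833 spots (WT), 5180493 in 1489 (Early), 3378219 in 2015 (Advanced 1) and 3198238 in 1782 (Advanced 2). Levels are given as UMIs per 10000 UMIs of the area, with exact 95% Poisson intervals, and ratios of levels with exact 95% conditional intervals. Both cover counting error only, not the spread between mice. A spot can hold several cells, so fewer cells of a type and less RNA per cell could not be told apart. A rim spot had tissue on fewer than 6 of its 6 sides and an interior spot on all 6. Rim spots were far deeper, with a median of 5541 UMIs against 156 in the interior on the Early area, and held 79.3% of the UMIs of WT, 75.7% of Early, 47.9% of Advanced 1 and 64.5% of Advanced 2.

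Saa3, the effector of the group, was its most counted gene, with 3890 UMIs over the 4 areas. Saa3 lies on chromosome 7 of GRCm38 from 46711998 to 46715700 on the minus strand. It was counted at 0.741 per 10000 UMIs on the WT area (134 UMIs), 5.38 on Early (2789 UMIs), 1.87 on Advanced 1 (632 UMIs) and 1.05 on Advanced 2 (335 UMIs). The Early area stood above all others and no intervals overlapped with it. Its level was 7.27-fold that of WT (interval 6.11 to 8.71), 2.88-fold that of Advanced 1 (2.64 to 3.14) and 5.14-fold that of Advanced 2 (4.59 to 5.77). The Advanced areas were themselves above WT, by 2.53-fold for Advanced 1 (2.09 to 3.07) and 1.41-fold for Advanced 2 (1.15 to 1.74). Of the other serum amyloid A genes, which can share reads with Saa3, Saa1 had 15 UMIs in all, Saa2 had 1 and Saa4 had 2.

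Clec4e, the receptor Mincle, had the same order of Early over the rest. Clec4e lies on chromosome 6 from 123281789 to 123289870 on the minus strand. The level was 0.0885 per 10000 on WT (16 UMIs), 0.656 on Early (340 UMIs), 0.216 on Advanced 1 (73 UMIs) and 0.310 on Advanced 2 (99 UMIs). The 2 Advanced areas lay between WT and Early, with overlapping intervals between themselves. Early was 7.42-fold above WT (interval 4.50 to 13.1), 3.04-fold above Advanced 1 (2.35 to 3.97) and 2.12-fold above Advanced 2 (1.69 to 2.68).

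Clec4d, the related receptor MCL, did not share this pattern although it is the neighbour of Clec4e. It lies on the plus strand of the same chromosome from 123262111 to 123275265, with 6523 bases between the 2 genes. Clec4d was counted at 0.0940 per 10000 on WT (17 UMIs), 0.120 on Early (62 UMIs), 0.0651 on Advanced 1 (22 UMIs) and 0.103 on Advanced 2 (33 UMIs). The areas lay close to each other, and Early was apart from Advanced 1 alone, at a ratio of 1.84 (interval 1.11 to 3.14), or 1.38 (0.781 to 2.49) without the 1 piece of Early tissue called piece 2 below. Early over WT was 1.27 (0.735 to 2.32) and over Advanced 2 was 1.16 (0.749 to 1.83). With 134 UMIs in all, a 2-fold difference of Clec4d between Early and WT was within the counting error.

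Aoah, the lipopolysaccharide hydrolase, was higher on the Early area than on the other 3, which were alike in level. Aoah spans 20794113 to 21036617 of chromosome 13 on the plus strand. Its level was 0.138 per 10000 on WT (25 UMIs), 0.295 on Early (153 UMIs), 0.127 on Advanced 1 (43 UMIs) and 0.131 on Advanced 2 (42 UMIs). Those 3 areas lay within each other's counting error, with Advanced 1 at 0.921 of WT (interval 0.550 to 1.57). Early was 2.14-fold above WT (1.39 to 3.41), 2.32-fold above Advanced 1 (1.64 to 3.33) and 2.25-fold above Advanced 2 (1.59 to 3.24). Without piece 2 of Early, described below, these ratios were 1.77 (1.13 to 2.89), 1.93 (1.33 to 2.84) and 1.87 (1.28 to 2.76).

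Lipg, the endothelial lipase, was again highest on the Early area. It took 0.127 of 10000 UMIs on WT (23 UMIs), 0.444 on Early (230 UMIs), 0.175 on Advanced 1 (59 UMIs) and 0.216 on Advanced 2 (69 UMIs). Early stood apart from the other 3 areas, at 3.49-fold the WT level (interval 2.27 to 5.62), 2.54-fold that of Advanced 1 (1.90 to 3.44) and 2.06-fold that of Advanced 2 (1.57 to 2.73).

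Il1b, the cytokine of the group, went against the label. Il1b lies on chromosome 2 from 129364570 to 129371139 on the minus strand. It was counted at 0.663 per 10000 on WT (120 UMIs), 0.419 on Early (217 UMIs), 0.305 on Advanced 1 (103 UMIs) and 0.400 on Advanced 2 (128 UMIs). WT was the highest area, and the Early level was 0.631 of it (interval 0.503 to 0.796). Early was 1.37-fold above Advanced 1 (1.08 to 1.75) and 1.05-fold above Advanced 2 (0.837 to 1.31), so it was not set apart from Advanced 2. The excess over Advanced 1 rested on 1 piece of Early tissue (piece 2, described below) with 122 of the 217 UMIs. Without it the ratio was 0.849 to Advanced 1 (0.636 to 1.13) and 0.647 to Advanced 2 (0.491 to 0.850). On the WT area 10 spots held 60 of the 120 Il1b UMIs.

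The background of these contrasts was uneven. The Early level was at least 2-fold that of WT for 4.2% of the 12072 genes, that of Advanced 1 for 0.746% and that of Advanced 2 for 1.23%. In edgeR's quasi-likelihood fit of the Advanced areas against Early, with 1 residual degree of freedom, 0.476% of 13024 genes were higher in Advanced and 0.775% lower at an adjusted p of 0.05. The fitted log2 differences of Advanced to Early were -1.97 for Saa3 (standard error 0.17), -1.40 for Clec4e (0.23), -1.27 for Aoah (0.31), -1.27 for Lipg (0.26), -0.59 for Clec4d (0.41) and -0.33 for Il1b (0.24). The rule used this contrast, so no call is read for them. The DESeq2 test called 14 genes in all where edgeR called 163.

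**Figure D1:**
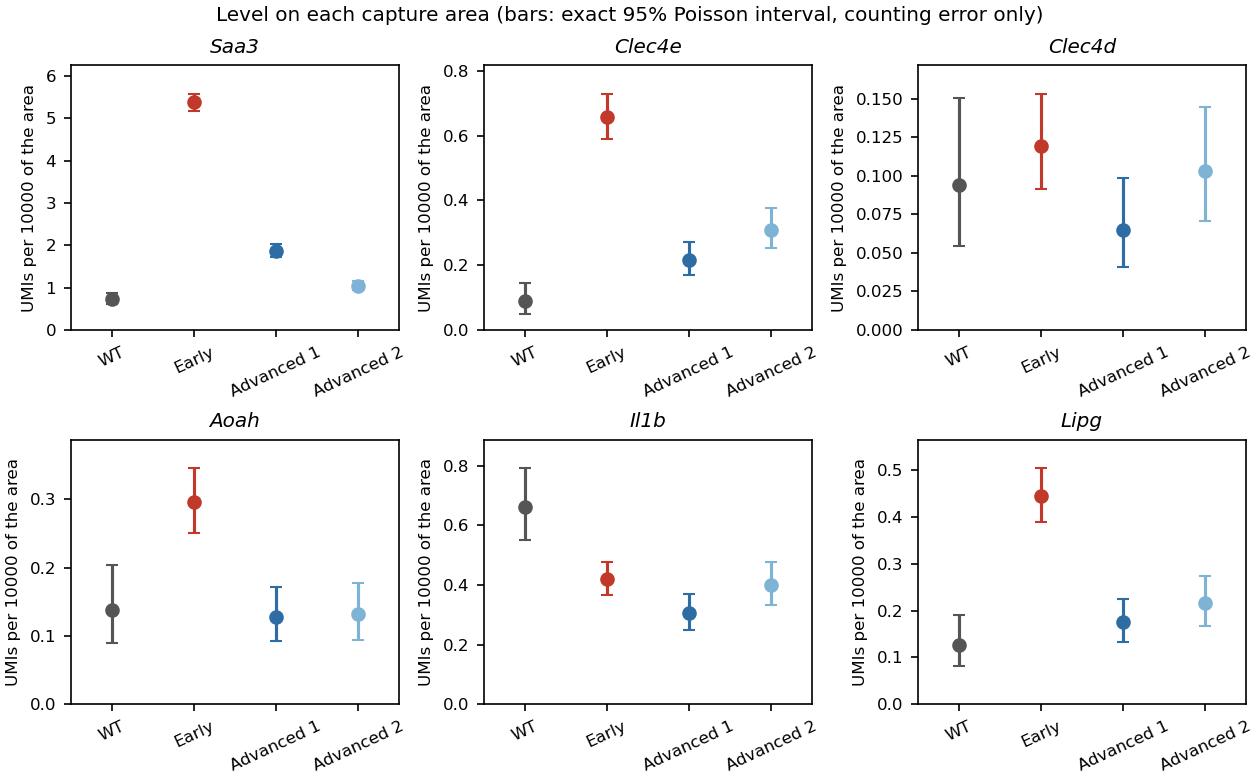
UMIs per 10000 UMIs of each of the 6 genes on the 4 capture areas, one panel a gene, with exact 95% Poisson intervals that cover counting error only. Saa3, Clec4e, Aoah and Lipg were highest on Early (5.38, 0.656, 0.295 and 0.444), while Il1b was highest on WT (0.663) and the Clec4d intervals largely overlapped.

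Position under the tissue outline, at the rim or inside it, was read next. What tissue the shallow interior spots cover was not tested. On the TNF-Tg areas Clec4e and Lipg were higher at the rim, and Saa3 and Il1b were each higher in the interior on 2 areas. The Clec4e level at the rim was 2.05 times that of the interior on Early (interval 1.50 to 2.86), 2.22 times on Advanced 1 (1.34 to 3.79) and 2.47 times on Advanced 2 (1.47 to 4.38). On WT, with 16 UMIs, it was 0.781 (0.237 to 3.32). For Lipg the ratio was 1.24 on WT (0.411 to 5.00), 2.14 on Early (1.45 to 3.25), 3.19 on Advanced 1 (1.74 to 6.18) and 7.04 on Advanced 2 (2.86 to 22.4). The 3 TNF-Tg areas thus lay on the rim side for both genes, while the WT intervals included 1.

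Saa3 ran the other way on 2 of the TNF-Tg areas. Its rim level was 0.634 of the interior level on Early (interval 0.586 to 0.687) and 0.427 on Advanced 1 (0.357 to 0.509), but 0.935 on Advanced 2 (0.746 to 1.18) and 1.33 on WT (0.834 to 2.20). By steps from the tissue edge on Early, Saa3 took 4.72 of 10000 UMIs in step 1, 7.01 in step 2, 5.27 in steps 3 and 4 and 10.9 from step 5 on. The Clec4e level fell with each further step, at 0.750 (294 UMIs), 0.483 (35 UMIs), 0.332 (9 UMIs) and 0.0761 (2 UMIs), although the intervals of neighbouring steps overlapped. Il1b was at 0.518 at the rim relative to the interior on Early (0.391 to 0.690) and at 0.533 on Advanced 2 (0.371 to 0.765), while the ratios of 0.780 on Advanced 1 (0.515 to 1.17) and 0.897 on WT (0.579 to 1.43) were not apart from 1. Its level on Early was 0.342 in step 1 (134 UMIs), 0.704 in step 2 (51 UMIs), 0.959 in steps 3 and 4 (26 UMIs) and 0.228 from step 5 on (6 UMIs). Il1b thus peaked below the edge. Aoah was at 0.848 on Early, 0.583 on Advanced 1 and 0.374 on Advanced 2, where the interval (0.189 to 0.720) excluded 1. On WT its ratio was 1.37 (0.461 to 5.48). Clec4d had ratios between 0.477 and 1.49 with all intervals including 1.

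Over the 4 areas, with the area as a block and 3 residual degrees of freedom, the edgeR fit called 4.14% of 11675 genes higher at the rim and 3.49% lower. The fitted log2 difference was 1.16 for Clec4e (standard error 0.19), 1.58 for Lipg (0.25) and -0.56 for Il1b (0.16). It was -0.47 for Saa3 (0.16), -0.45 for Aoah (0.25) and 0.18 for Clec4d (0.34). The rule named this contrast too, so these are given as a description without a call. The departure of the rim difference on Early from that of the other areas was fitted as an interaction, with 1 Early area and 2 residual degrees of freedom. No gene passed in edgeR (0% of 12254, with 337 at an unadjusted p under 0.05) or in DESeq2, which at this size does not show that the areas were alike. The interaction on the log2 scale was -0.01 for Clec4e (standard error 0.27), -0.70 for Lipg (0.53), -0.13 for Saa3 (0.35), -0.40 for Il1b (0.36), 0.78 for Clec4d (0.74) and 0.60 for Aoah (0.50).

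**Figure D2:**
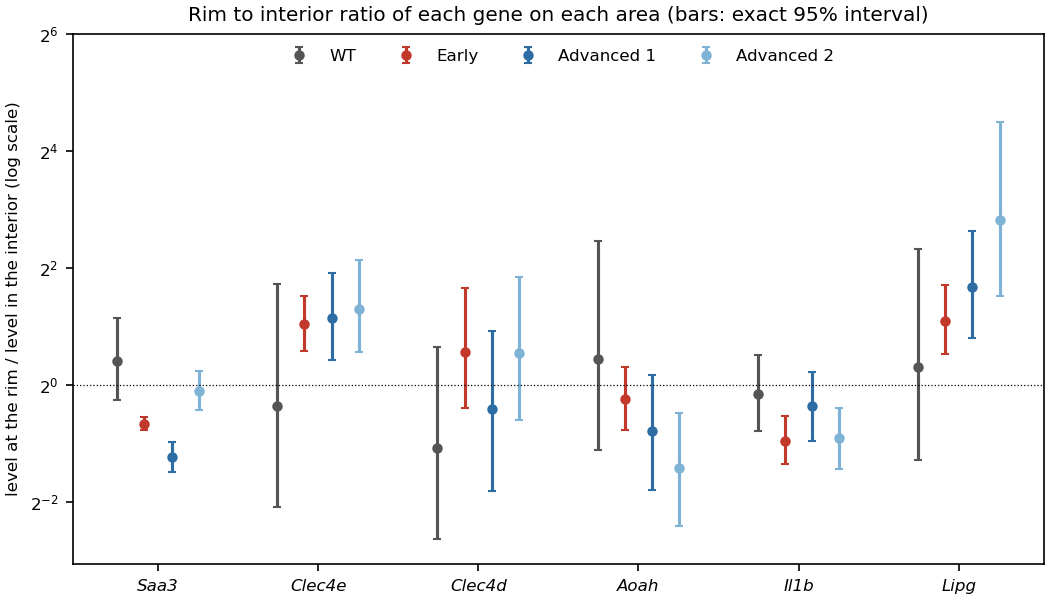
Ratio of the level at the rim to that in the interior for each gene on each area, on a log axis, with exact 95% intervals for counting error and a dotted line at 1. Clec4e and Lipg lie above 1 on the 3 TNF-Tg areas, and Saa3 lies below 1 on Early (0.634) and Advanced 1 (0.427).

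Since areas differed in the share of UMIs at the rim, the areas were also compared within the rim and within the interior. Saa3 remained at least 2-fold higher on Early than on every other area in both, at 6.05, 4.29 and 4.62 times WT, Advanced 1 and Advanced 2 at the rim and at 12.6, 2.89 and 6.81 times in the interior. Clec4e at the rim was 8.96-fold above WT (interval 5.05 to 17.5), 2.47-fold above Advanced 1 (1.82 to 3.42) and 1.91-fold above Advanced 2 (1.49 to 2.47). Aoah at the rim was 1.93-fold above WT (1.21 to 3.25), 3.05-fold above Advanced 1 (1.77 to 5.64) and 3.44-fold above Advanced 2 (2.05 to 6.11). Lipg at the rim was 3.85-fold above WT (2.40 to 6.53), 1.87-fold above Advanced 1 (1.35 to 2.66) and 1.64-fold above Advanced 2 (1.24 to 2.21). At the rim alone 1 of the 6 genes, Saa3, was 2-fold above each other area, and in the interior alone 3 were (Saa3, Clec4e and Lipg). The share of all genes that did so within the rim or the interior was not computed, so nothing is read from these counts. Early over WT in the interior was 3.41 for Clec4e (1.25 to 13.1) and 2.23 for Lipg (0.785 to 8.70, which includes 1). Each rested on 4 UMIs in the WT interior.

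**Figure D3:**
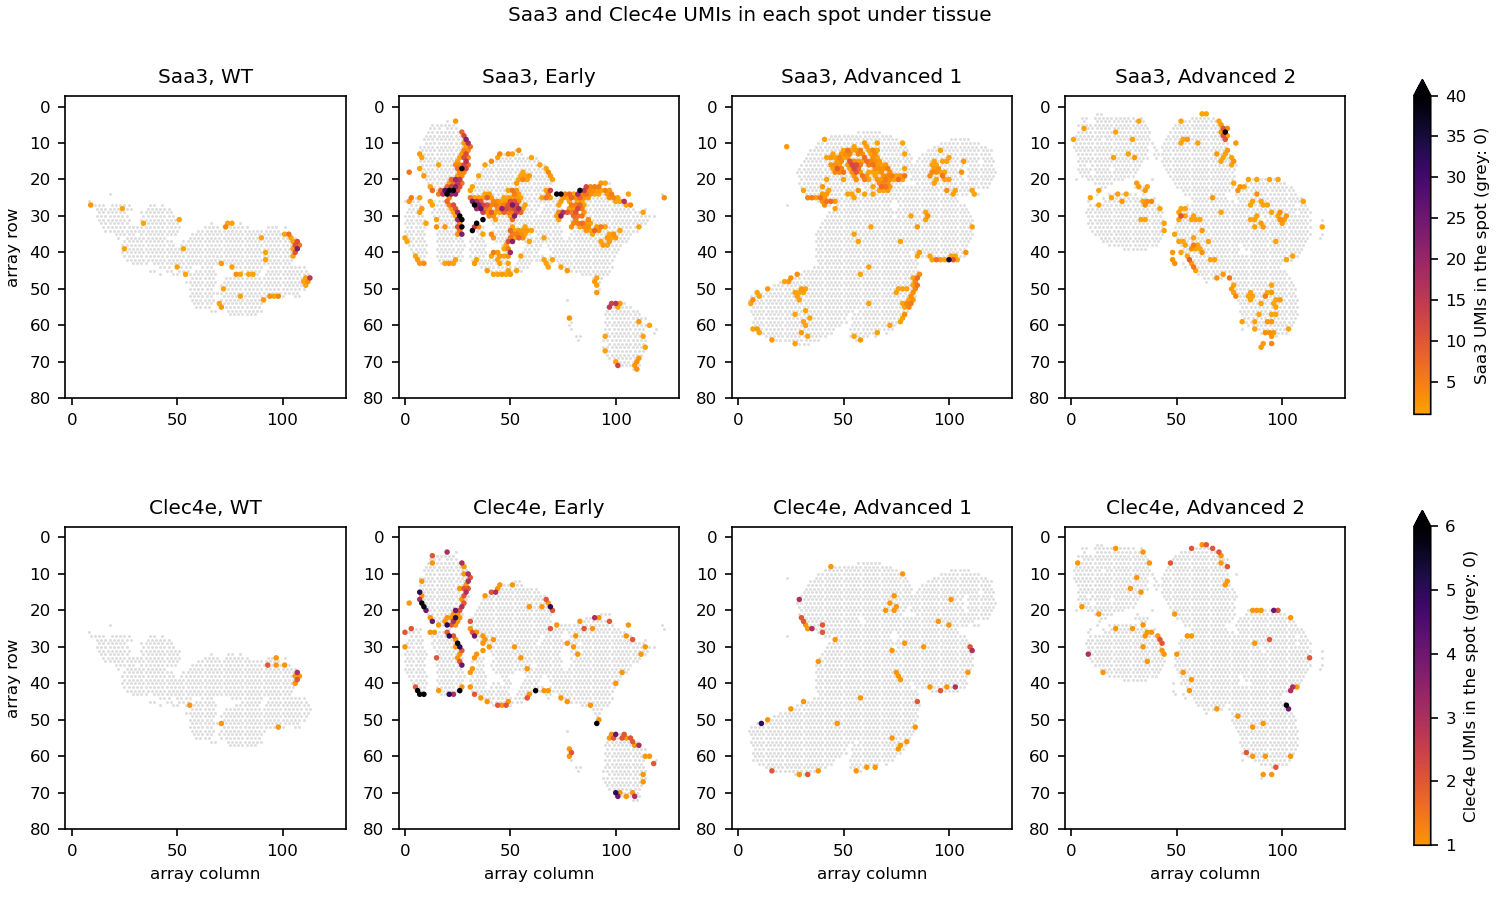
Each point is a spot under tissue at its array row and column, grey with 0 UMIs and coloured by its UMIs of Saa3 (upper row) or Clec4e (lower row) on the 4 areas. Saa3 forms bands through the nodes of Early and fills an interior region of Advanced 1, while Clec4e follows the outline of the tissue on the 3 TNF-Tg areas and has 16 UMIs on WT.

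Saa3 was patchy between pieces of tissue. Spots were joined to their neighbours into pieces, and pieces of at least 20 spots were kept, 4 of them on Early (924, 313, 158 and 79 spots). A piece is not a PLN, since touching nodes join. Saa3 took 5.76 of 10000 UMIs in Early piece 1 (1472 UMIs), 7.16 in piece 2 (1083 UMIs), 1.095 in piece 3 (78 UMIs) and 0.848 in piece 4 (22 UMIs). Pieces 3 and 4 lay within the range of the other areas' pieces, which ran from 0.384 to 1.87. Clec4e stood at 0.391, 1.06, 0.562 and 1.16 in the 4 Early pieces, each above the highest piece of the other areas (0.338, interval 0.267 to 0.422), although the interval of Early piece 1 (0.318 to 0.476) overlapped with it. The 2 genes thus differed in which pieces carried them, since pieces 3 and 4 had the lowest Saa3 levels while Clec4e in piece 4 (interval 0.780 to 1.65) was within counting error of piece 2 (0.907 to 1.24).

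Lipg was at 0.301, 0.747, 0.309 and 0.501 in the Early pieces, against 0.115 to 0.251 in the pieces of the other areas. The intervals of Early pieces 1 (0.238 to 0.376), 3 (0.194 to 0.468) and 4 (0.267 to 0.857) overlapped with that of Advanced 2 piece 1 (0.191 to 0.325). Aoah was at 0.254, 0.417, 0.267 and 0.0385 in the Early pieces, the last on 1 UMI. Il1b was at 0.293, 0.807, 0.140 and 0.308, so that piece 2 alone reached the WT level of 0.672. Without piece 2 of Early 1 of the 6 genes, Saa3, was still 2-fold above each other area. Clec4e then stood at 5.52, 2.26 and 1.58 times WT, Advanced 1 and Advanced 2. Lipg stood at 2.51, 1.83 and 1.48 times and Aoah at 1.77, 1.93 and 1.87 times, all with intervals above 1. Without any of the other 3 pieces the count of 4 held. The markers of sinus macrophages also moved with the pieces, at 42.3, 65.6, 21.2 and 10.6 per 10000 UMIs in the order of the Early pieces, and so did those of neutrophils, at 4.09, 9.07, 1.80 and 2.47. Red cell markers, at 15.2, 23.7, 0.983 and 0.616, and mast cell markers, at 2.94, 3.27, 0.660 and 0.578, were also higher in pieces 1 and 2. So were markers of lymphatic endothelium (3.87, 5.37, 2.25 and 1.62), plasma cells (15.4, 10.9, 6.63 and 7.86) and T cells (6.18, 5.17, 3.00 and 3.51). The same held for fibroblasts (10.2, 11.4, 4.69 and 8.94) and, by little, dendritic cells (3.88, 3.80, 3.14 and 3.39). Blood endothelium markers, at 18.0, 20.8, 19.0 and 30.1, ranked the pieces in the order of Clec4e. B cell markers were higher in pieces 3 and 4, at 29.4, 25.7, 44.9 and 42.5. Their part in these levels was not tested.

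**Figure D4:**
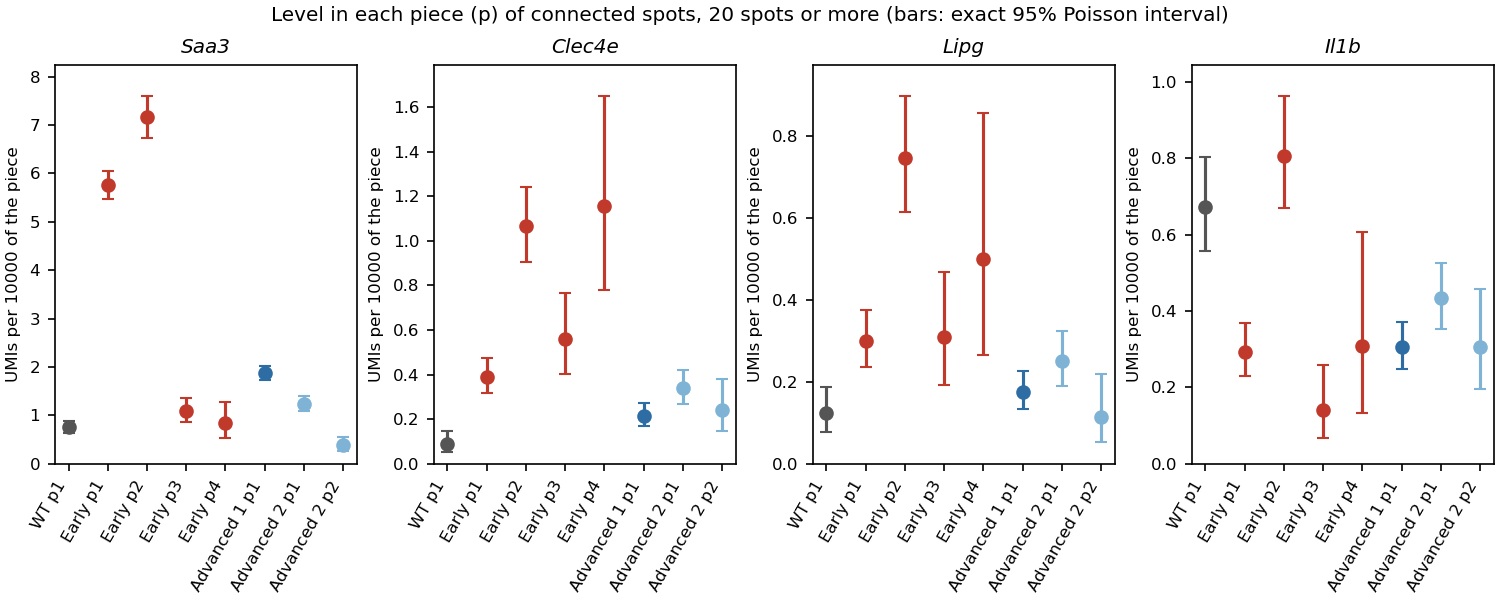
UMIs per 10000 UMIs of Saa3, Clec4e, Lipg and Il1b in each piece of connected tissue spots (p), coloured by area, with exact 95% Poisson intervals. Saa3 is high in 2 of the 4 Early pieces (5.76 and 7.16), whereas the Clec4e level is above every piece of the other areas in all 4, with overlapping intervals for Early piece 1.

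The cell types that could carry these genes were followed through marker lists, summed per area. The sinus macrophage list (12 markers, led by Marco, a scavenger receptor) stood at 64.3 per 10000 UMIs on WT, 44.0 on Early, 32.1 on Advanced 1 and 43.7 on Advanced 2, with Vsig4 at 0 on WT, Early and Advanced 1. Marco itself was at 30.4, 22.9, 16.6 and 21.2. The neutrophil list (11 markers, led by S100a9) stood at 6.60, 5.13, 11.7 and 6.50, and the monocyte list (8 markers, led by Plac8) at 5.72, 4.42, 5.22 and 4.38. None of these 3 lists of myeloid cells was highest on Early. B cell markers were, at 16.1, 30.9, 26.9 and 23.3, as were red cell markers, at 3.71, 14.9, 13.1 and 11.0, and their part in the levels of the 6 genes was not tested. Lymphatic endothelium stood at 6.49, 3.95, 3.41 and 4.88, plasma cells at 22.5, 12.5, 15.1 and 18.4, and T cells at 7.94, 5.35, 6.01 and 6.51. Blood endothelium stood at 14.8, 19.6, 23.2 and 17.5, and fibroblasts at 12.4, 9.91, 10.4 and 7.30. Dendritic cells, at 4.73, 3.73, 4.40 and 3.94, and mast cells, at 4.41, 2.60, 2.65 and 2.81, were lowest on Early. PLN tissue was thus marked on every area, with Cd79a of B cells at 6.40 or more and Lyve1 of lymphatic endothelium at 1.15 or more.

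To see which tissue each gene kept company with, the 25% of spots richest in each marker list were set against the remaining spots, among spots of at least 1000 UMIs. Log2 ratios were taken after adding 0.5 to each count. Saa3 and Aoah had their highest mean ratio with markers of the sinuses. Saa3 was higher in the sinus macrophage-rich spots on 4 of 4 areas, with a log2 ratio of 1.94 ± 0.676 (SD, n = 4 areas), and Aoah likewise, at 1.54 ± 0.795. On Early, Saa3 took 10.9 of 10000 UMIs in these spots against 2.82 elsewhere, a ratio of 3.87 (interval 3.58 to 4.20), and Aoah 0.653 against 0.135, a ratio of 4.85 (3.40 to 7.03). Both were also higher in the lymphatic endothelium-rich spots on 4 of 4 areas, at 1.27 ± 0.779 and 1.02 ± 0.549. Other lists went with them too. Saa3 was higher on 4 of 4 areas in the neutrophil-rich (0.64 ± 0.447) and monocyte-rich spots (0.76 ± 0.909), and Aoah in the neutrophil-rich spots (0.65 ± 0.236). Aoah was higher in the mast cell-rich spots on 4 of 4 areas, at 1.11 ± 0.481, and Saa3 in the fibroblast-rich spots on 3 of 4, at 0.67 ± 1.04, with 10.7 of 10000 UMIs in them on Early against 3.05 elsewhere. On 3 of 4 areas Saa3 was also higher in the plasma cell-rich (0.67 ± 0.548) and mast cell-rich spots (0.53 ± 0.601), with lower means than in the sinus macrophage-rich spots. In the B cell-rich spots Saa3 was lower on 4 of 4 areas, at -2.39 ± 0.845, and Aoah on 3 of 4, at -1.75 ± 1.75.

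Clec4e and Lipg did not share this distribution. In the sinus macrophage-rich spots Clec4e was higher on 1 of 4 areas (-0.21 ± 1.22) and Lipg on 2 of 4 (-0.70 ± 0.984). Both were lower in the T cell-rich spots on 4 of 4 areas, at -0.89 ± 0.210 for Clec4e and -1.50 ± 0.783 for Lipg. So was Lipg in the plasma cell-rich (-1.72 ± 0.772), lymphatic endothelium-rich (-1.14 ± 1.01), fibroblast-rich (-1.05 ± 0.564) and monocyte-rich spots (-0.60 ± 0.202). Lipg had its highest mean in the B cell-rich spots (0.44 ± 0.924, higher on 3 of 4 areas), although on Early its ratio there was 0.587 (interval 0.367 to 0.898). Clec4e was higher in the B cell-rich spots on 2 of 4 areas (-0.12 ± 1.83). Its highest mean was in the blood endothelium-rich spots (0.37 ± 0.340, higher on 3 of 4). Clec4d was higher on 4 of 4 areas in the neutrophil-rich spots, at 1.21 ± 0.383, and also in the fibroblast-rich (0.72 ± 0.281), blood endothelium-rich (0.55 ± 0.189) and monocyte-rich spots (0.37 ± 0.236). Il1b was lower in the B cell-rich spots on 4 of 4 areas, at -1.66 ± 0.540, and higher in the fibroblast-rich spots on 4 of 4, at 0.33 ± 0.213, and in the sinus macrophage-rich spots on 3 of 4, at 0.80 ± 0.919. Spots rich in a list differ from the others in depth and in rim share, which was 43.3% in the sinus macrophage-rich spots of Early against 69.6% of its other spots. Their part in these ratios was not tested.

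Within the sinus macrophage-rich spots alone, Saa3 was still 6.45-fold higher on Early than on WT (interval 5.30 to 7.93), 2.63-fold higher than on Advanced 1 (2.34 to 2.96) and 5.95-fold higher than on Advanced 2 (5.00 to 7.13). Aoah was 3.68-fold above WT there (1.98 to 7.60), 2.79-fold above Advanced 1 (1.70 to 4.81) and 2.03-fold above Advanced 2 (1.30 to 3.30). Il1b was at 0.543 of WT (0.404 to 0.735), 2.64-fold above Advanced 1 (1.65 to 4.43) and 1.27-fold above Advanced 2 (0.881 to 1.88). Lipg, with 2 UMIs on WT there, was at a ratio of 14.4 (3.86 to 121), and was 4.72-fold above Advanced 1 (2.28 to 11.3) and 1.93-fold above Advanced 2 (1.14 to 3.43). Clec4e was 3.86-fold above WT (2.02 to 8.29), 6.32-fold above Advanced 1 (3.09 to 15.0) and 2.90-fold above Advanced 2 (1.71 to 5.27). Saa3, Aoah and Clec4e were thus 2-fold higher on Early than on each other area among spots of like marker rank.

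**Figure D5:**
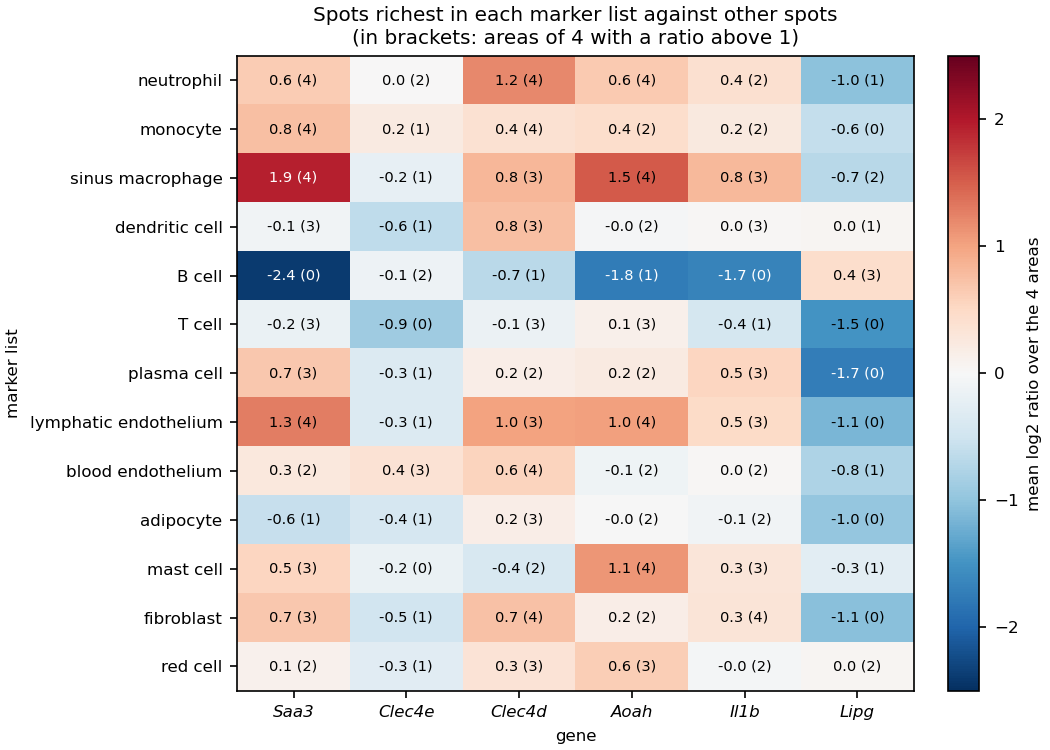
Mean log2 ratio over the 4 areas of each gene in the 25% of spots richest in a marker list to the other spots of at least 1000 UMIs, in colour and digits, with the number of areas above 1 in brackets. Saa3 and Aoah are high with sinus macrophage markers (1.94 and 1.54) and Saa3 is low with B cell markers (-2.39).

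The genes whose spot pattern was most like each member on Early were taken among 4808 genes over 601 spots of at least 1000 UMIs, which share one library and differ in depth. For Saa3 they were Marco (Pearson r = 0.618), Cd209b, a lectin of sinus macrophages (0.573), and the chemokine Ccl8 (0.564). Aoah had Cd209b (0.357), Lbp, the lipopolysaccharide binding protein (0.338), and Ccl8 (0.332). Clec4e and Lipg shared Il22ra2, the soluble decoy receptor of interleukin 22 (0.304 and 0.331), and lysozyme Lyz2 (0.302 and 0.309), followed by Lyz1 for Clec4e (0.256) and Tmsb4x for Lipg (0.252). The correlation of Saa3 with Lyz2 was 0.0592, and that of Clec4e with Marco was -0.0610. Il1b had Kdr (0.260), Hdac2 (0.239) and Tnfaip2 (0.211), and Clec4d had Tgm2 (0.209), Acta2 (0.200) and Strap (0.192). Apart from those of Saa3 these correlations are weak, and each rests on 61 to 337 UMIs of the member in these spots.

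Few spots held more than 1 of the genes once depth was equal, but at 1000 UMIs most spots cannot show genes of these levels. The scarcity is therefore not read as a result about the genes. In the 601 Early spots of at least 1000 UMIs, each thinned to 1000 UMIs, Saa3 was seen in 166 spots, Clec4e in 25, Il1b in 22, Lipg in 20, Aoah in 14 and Clec4d in 2. Saa3 and Clec4e met in 4 spots, where the product of their shares gave 6.91, and Saa3 and Il1b in 9 against 6.08. The 4 pairs with at least 1 spot expected, all with Saa3, had ratios of observed to expected from 0.579 to 1.48 with a median of 0.970, and the other 11 pairs could not be read. The median was 0.497 on Advanced 1 (4 pairs) and 1.39 on Advanced 2 (3 pairs), and 1.16 on Early at 2000 UMIs (11 pairs). Without thinning the same spots gave 110 spots with Saa3 and Clec4e against 89.4, and a median ratio over the 15 pairs of 1.99, while the 4 pairs read after thinning had ratios from 1.23 to 1.52. In the thinned Early spots Saa3 was seen in 54.7% of the sinus macrophage-rich spots (82 of 150 spots, exact binomial interval 46.3% to 62.8%, median depth before thinning 7643 UMIs) and in 7.33% of the B cell-rich spots (3.72% to 12.7%, median 3437).

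A few spots held a large share of the UMIs. The 10 richest of the 1489 Early spots held 23.8% of the summed UMIs of the 6 genes, against 52.2% on WT, 14.9% on Advanced 1 and 21.1% on Advanced 2. The richest single spot held 138 Saa3 UMIs on Early and 23 on WT, where 10 spots held 68.7% of all Saa3 UMIs. Without the 10 richest spots of each area the same 4 genes were 2-fold above each other area, and the log2 ratio of Early to WT was 3.81 in place of 2.86 for Saa3 and 3.80 in place of 2.89 for Clec4e.

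The pathways around the 6 genes were read from lists of 92 other genes. These lists were chosen with earlier results of these data known. A count above the share of all genes may therefore follow from that choice, and no enrichment is read from it. At the rim 7 of 76 tested were higher and 4 lower, and in Advanced against Early 3 of 79 were higher and 11 lower, by the same edgeR fits as above. Over all genes tested the shares were 4.14% and 3.49% at the rim and 0.476% and 0.775% in Advanced against Early, and the counts for each list below are to be read against these. DESeq2 called 6 of the 11 rim genes (Ccl20, Ccl2, Lpl, Pnpla2, Cd36 and Serpina3n), did not call Cxcl5, Clec4a1, Il18r1 and Serpina3g, and gave no adjusted p for Orm1. It called 1 of the 14 Advanced against Early genes, Ccl20, and gave no adjusted p for 5. With a lone Early area, the p-values of the second contrast hold no spread between Early mice, and its edgeR calls other than Ccl20 rest on edgeR alone. Over all genes tested the medians of these log2 differences were -0.0027 and 0.011. Of the 75 with at least 50 UMIs, Ccl20 alone was at least 2-fold higher on Early than on each other area.

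Among inflammatory cytokines and chemokines 5 of 11 tested were lower in Advanced than on Early and none higher, with a median log2 difference of -0.79. Ccl20, which attracts cells with the receptor CCR6, fell by 1.87 on the log2 scale (edgeR adjusted p = 1.3e-15, DESeq2 adjusted p = 4.3e-05), and Ccl7, an attractant of monocytes, by 1.16 (7.1e-07). Ccl2, another such attractant, was lower by a log2 difference of -0.68 (0.033) and Cxcl1, an attractant of neutrophils, of -1.05 (0.0087). The fifth, the granulocyte growth factor Csf3, had 42 UMIs in all. The Advanced areas were unequal in these genes. Ccl2 took 1.49 of 10000 UMIs on Early, 0.619 on Advanced 1 and 1.35 on Advanced 2, so its difference lay mainly against Advanced 1. In the same order Ccl7 took 1.69, 0.447 and 1.15, and Cxcl1 took 0.398, 0.269 and 0.134. Csf1, the macrophage growth factor, passed neither test. At the rim Ccl20 was higher, by 1.70 (edgeR adjusted p = 3.5e-05), and Ccl2 (-0.97, 4.4e-05) and Cxcl5 (-0.86, 0.014, not called by DESeq2) were lower. Ccl20 thus shared both the Early level and the rim with Clec4e and Lipg, at 0.149 per 10000 on WT, 1.20 on Early, 0.334 on Advanced 1 and 0.360 on Advanced 2. The median of the 10 genes tested at the rim was -0.23.

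Of 15 acute phase genes tested, 2 were lower in Advanced than on Early, Hp (haptoglobin) with a log2 difference of -0.95 (edgeR adjusted p = 5.3e-05) and Socs3, the feedback inhibitor of interleukin 6 signalling, with -0.86 (0.0029). Hp was at 1.05 per 10000 on WT, 2.38 on Early, 1.53 on Advanced 1 and 1.08 on Advanced 2, the order of Saa3 at a smaller fold. At the rim 3 of 15 were higher, Serpina3n (0.59, adjusted p = 0.0020), Serpina3g (0.40, 0.048) and Orm1, the last with 45 UMIs in all. Il6st, the signalling chain of the interleukin 6 receptor and the most counted of the list, passed neither test.

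Genes of lipopolysaccharide sensing included 2 of 13 that were lower in Advanced, the co-receptor Cd14 (-1.09, edgeR adjusted p = 0.019) and Lbp (-0.81, 0.023), and none of 12 passed at the rim. Unlike Aoah, neither was higher on Early than on WT. Cd14 stood at 0.332 on WT and 0.313 on Early, and Lbp at 1.01 and 0.703. Irak1, Tnfaip3 and Myd88, the most counted of the list, passed neither test.

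In the IL-1 family 1 of 17 was lower in Advanced, the alarmin Il33 (-0.97, edgeR adjusted p = 0.00017), and 2 were higher, the interleukin 18 receptor chains Il18r1 (1.21, 0.0069) and Il18rap (1.58, 0.0014). Il18r1 was also lower at the rim (-0.68, 0.027), the 1 of 16 that passed. Gsdmd and Pycard, the pore and the adaptor of the inflammasome, passed neither test.

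Among the C-type lectins Clec4n (Dectin-2) stood at 4.65 per 10000 on WT, 2.29 on Early, 1.15 on Advanced 1 and 1.37 on Advanced 2, and was the 1 of 12 lower in Advanced (-0.94, edgeR adjusted p = 7e-05). Between WT and Early, Clec4e was thus higher and this relative in the family lower, as levels without a test. Clec4a1 was the 1 of 12 lower at the rim (-0.65, 0.0093). The shared signalling partners Fcer1g, Syk and Prkcd passed neither test.

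Among the other lipases and their cofactors the order of the areas seen for Lipg did not recur in Lpl. Lpl, lipoprotein lipase, was at 1.81 per 10000 on WT, 0.631 on Early, 1.06 on Advanced 1 and 1.17 on Advanced 2, and was the 1 of 11 that was higher in Advanced (0.74, edgeR adjusted p = 0.039). At the rim 3 of 11 were higher, Lpl (0.86, 0.0030), the triglyceride lipase Pnpla2 (0.93, 0.00012) and the fatty acid transporter Cd36 (0.87, 0.0021). Plin2, the lipid droplet coat protein and the most counted of the list, passed neither test. The adipocyte markers stood at 9.68, 5.88, 9.69 and 13.9 on WT, Early, Advanced 1 and Advanced 2, and Lipg was lower in the adipocyte-rich spots on 4 of 4 areas (-0.97 ± 0.819).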

How the data were processed

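Visium counts of 4 capture areas were used as deposited. Per the labels and methods, the authors made the UMI counts with Space Ranger 1.1.0 on mm10 (GRCm38), and the deposited counts hold spots under tissue and no normalization. Counts were summed per area, or per rim and interior, after assigning array neighbours. Levels carry exact Poisson intervals (scipy 1.17.1). Tests across genes used edgeR 4.0.16 in R 4.3.3 (TMM, filterByExpr, quasi-likelihood, Benjamini-Hochberg), with the area as a block at the rim, and were checked on simulated data, with DESeq2 1.42.0 as an alternative. The lone Early area was taken to have the spread of the 2 Advanced areas. Spots were not replicates. Visium barcodes mark array positions, and 464 to 1050 were shared between areas without any tie between spots. Promoters came from RefSeq and gene positions from GENCODE M21 (GRCm38). The members and lists were chosen with earlier results of these data known. Named genes are the members, the 3 most counted genes of each list and those that passed a test (at most 5 a list), the 3 genes most like each member, and paralogs that may share reads. Ccl21a and Clec7a were not analysed here. Tissue pieces and marker-rich spots were added after the data were seen.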

Additional observations from a re-analysis of the deposited data

How the results depend on the processing

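Leaving out each area in turn moved the genes called at the rim from 890 to between 272 and 1119, lowest without Advanced 2, 408 without Early, 535 without Advanced 1 and highest without WT. Those of the interaction went from 0 to between 0 and 6, with 6 without WT and 4 without Advanced 2. At the rim 517 were called with the rim within 2 steps of the edge, 536 in spots of at least 500 UMIs and 412 by DESeq2, and in the interaction 1 with that rim and 5 without the filter on low counts. Advanced against Early had 14 by DESeq2, 30 in rim spots and 35 in interior spots, in place of 163. The count of members 2-fold above each other area on Early went from 4 to 1 in rim spots and to 1 without piece 2 of Early, and was 3 or 4 under the other settings. The median co-occurrence ratio was 0.970 over 4 pairs with thinning and 1.99 over 15 pairs without. Without piece 2 the log2 ratio of Il1b on Early to the mean of Advanced turned from 0.25 to -0.45, and Clec4d changed sign against WT (0.35 to -0.06, and -0.88 in the interior) and at the rim (0.18 to -0.04 with the wider rim and -0.11 without Early). No other member's log2 ratio or rim difference changed sign. No test remains for Advanced against Early without an Advanced area, and the interaction cannot be fitted without Early. No paired analysis was possible between stages because the groups compared held PLNs of different mice, while rim and interior were paired by area. Depth limits Clec4d most, with 134 UMIs.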

Other observations

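A further 10 genes, picked out after their values were seen, were at least 2-fold higher on Early than on each other area, and several lay outside inflammation. Hamp, which encodes the iron hormone hepcidin, had 1 UMI on WT, 417 on Early, 57 on Advanced 1 and 17 on Advanced 2. Its Early level was 4.77-fold that of Advanced 1 (interval 3.61 to 6.41) and 15.1-fold that of Advanced 2 (9.34 to 26.2), and against the 1 UMI of WT the ratio was 146 with an interval of 26.0 to 5764. Like Clec4e and Lipg it was higher at the rim, with a log2 difference of 1.93 (standard error 0.25), and on Early it was at 0.0655 in the sinus macrophage-rich spots relative to the other spots (0.0346 to 0.113). Stra6, a receptor for retinol binding protein, had 1, 101, 23 and 12 UMIs on WT, Early, Advanced 1 and Advanced 2. Its rim difference was 1.14 (0.39), and it too was low in the sinus macrophage-rich spots, at 0.222 (0.103 to 0.427).

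Cxcl13, the chemokine of B cell follicles, was at 4.49 per 10000 on WT, 24.1 on Early, 10.8 on Advanced 1 and 8.65 on Advanced 2, with a rim difference of 0.99 (standard error 0.13). Gpr84, a receptor of medium-chain fatty acids on myeloid cells, had 2, 38, 6 and 11 UMIs on WT, Early, Advanced 1 and Advanced 2, and its ratio in the sinus macrophage-rich spots of Early was 2.13 (1.06 to 4.31). Of the genes with the Early pattern, Saa3, Aoah and Gpr84 were among those that had an interval above 1 in the sinus macrophage-rich spots, while Ccl20, Cxcl13, Hamp, Stra6, Stra6l and Snap91 had one below 1. These are descriptions of a single area without a test.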
